A study of Mus musculus with 6 samples.

Results

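The genes examined here are the PRSS and TMPRSS serine proteases of the mouse testis, taken as every gene symbol in the files that begins with Prss or Tmprss followed by a digit. There were 55 such genes (38 Prss and 17 Tmprss) among 24411 listed genes. RNA was sequenced from whole, frozen testes of age-matched C57BL/6 mice, a standard inbred strain, with 3 libraries from animals carrying the genotype MRP5-/- and MRP9-/- (double knockout, DKO) and 3 from Wildtype animals (WT). The series asks what the loss of both transporters does to male reproduction and mitochondria. The labels give neither the age in weeks nor the design of the alleles, and no cell-type restriction of the deletion is stated. MRP5 and MRP9 are the ABCC-family membrane transporters encoded by Abcc5 and Abcc12.

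Most proteins with these names share the trypsin fold and cut proteins with a catalytic triad of histidine, aspartate and serine. Some of them lack an intact triad. PRSS proteins are secreted, stored in granules or tethered to the membrane, some by a glycosylphosphatidylinositol (GPI) anchor, whereas TMPRSS proteins are held in the membrane by an N-terminal transmembrane segment. In the testis, several members are made by germ cells and act on the sperm surface or in the acrosome, and in knockout mice the loss of some of them impairs the maturation of the sperm protein ADAM3, which sperm need to enter the oviduct.

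The libraries held 26753721 to 31745969 expected counts in WT and 42673615 to 67131103 in DKO, and the mean fragment length was 230 to 258 bases in WT and 275 to 317 bases in DKO, so that neither depth nor fragment length overlapped between the groups. Abcc12 was at 79.0 ± 5.56 CPM (counts scaled to library size) in DKO and 160 ± 3.93 CPM in WT (SD, n = 3 each; log2 fold change -1.02, edgeR adjusted p = 0.000307). Abcc5 was at 16.8 ± 0.190 CPM in DKO and 11.4 ± 0.898 CPM in WT (SD, n = 3 each; log2 fold change 0.56, edgeR adjusted p = 0.0225), which goes against the label; the files sum over whole genes and a probe of the deleted part alone was not analysed here. DKO therefore means the libraries labelled so throughout. The labelled tissue was checked against markers: the summed level of 6 spermatid markers was 97031 to 114337 TPM (transcript abundance scaled by length and library size), all 6 epididymis markers and all 5 mast cell markers had a mean below 0.5 TPM, and Sertoli, Leydig, spermatogonial and spermatocyte markers were all present.

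Prss37 was the member that edgeR called as different between the groups. Prss39, the most abundant member, and its neighbour Prss40 share a stretch of upstream sequence. The upstream sequences of these 3 genes are shown first. Each runs 5′ to 3′ and comes from the 250 bases before the start of 1 RefSeq transcript per gene (GRCm38.p6), without the bases that lie inside the widest RefSeq span of the gene. None had to be left out for Prss39, whereas 27 were for Prss37 and 61 for Prss40. Capitals mark the stretch of at least 12 bases that Prss39 and Prss40 have in common, and the Prss37 sequence, which was not part of that comparison, carries none. The sequence of Prss37 lies at chr6:40519536-40519758, minus strand. That of Prss39 lies at chr1:34498162-34498411, plus strand, and that of Prss40 at chr1:34561005-34561193, minus strand.
Prss37: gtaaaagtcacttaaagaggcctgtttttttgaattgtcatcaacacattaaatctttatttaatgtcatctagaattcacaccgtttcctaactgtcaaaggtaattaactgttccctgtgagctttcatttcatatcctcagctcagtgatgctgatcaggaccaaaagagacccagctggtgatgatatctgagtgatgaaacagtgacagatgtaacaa
Prss39: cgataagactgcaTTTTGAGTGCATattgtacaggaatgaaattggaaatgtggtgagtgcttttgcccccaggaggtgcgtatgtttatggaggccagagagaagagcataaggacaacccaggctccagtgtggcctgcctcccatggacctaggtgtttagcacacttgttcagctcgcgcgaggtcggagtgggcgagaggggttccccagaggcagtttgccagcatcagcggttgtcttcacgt
Prss40: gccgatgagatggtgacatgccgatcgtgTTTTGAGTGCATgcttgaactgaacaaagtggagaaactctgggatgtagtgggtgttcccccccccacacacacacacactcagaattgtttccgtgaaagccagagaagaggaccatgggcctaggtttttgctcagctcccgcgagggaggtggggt
Prss39 and Prss40 shared 1 such stretch, of 12 bases. Over 151 aligned bases of both windows, 113 (74.8%) were identical, which is 59.8% of the shorter window. The transcripts of the same pair were the most alike of all 276 pairs among the 24 expressed members, with 67.3% of the shorter transcript identical (median over pairs 55.8%). All 24 expressed members had whole-number counts in every library, so none of their fragments had been divided between genes; Prss53 and Prss57 were the 2 members with fractional counts.

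Of the 55 members, 24 were expressed at a mean of at least 1 TPM over all 6 libraries, 21 of them Prss and 3 Tmprss genes. TPM is scaled by transcript length, so levels of different genes can be set side by side on it. Together the 55 members took 1675 to 1753 TPM per library, or 0.168% to 0.175% of all transcripts. The 10 most abundant members made up 86.1% of that sum, and 19 members had a mean below 0.1 TPM. The sum was 1735 ± 15.7 TPM in DKO and 1698 ± 23.4 TPM in WT (SD, n = 3 each). The groups did not overlap in this sum, and the difference was 2.18% (p = 0.1 by a two-sided exact permutation test, and no split of 3 against 3 can go lower).

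**Figure D1:**
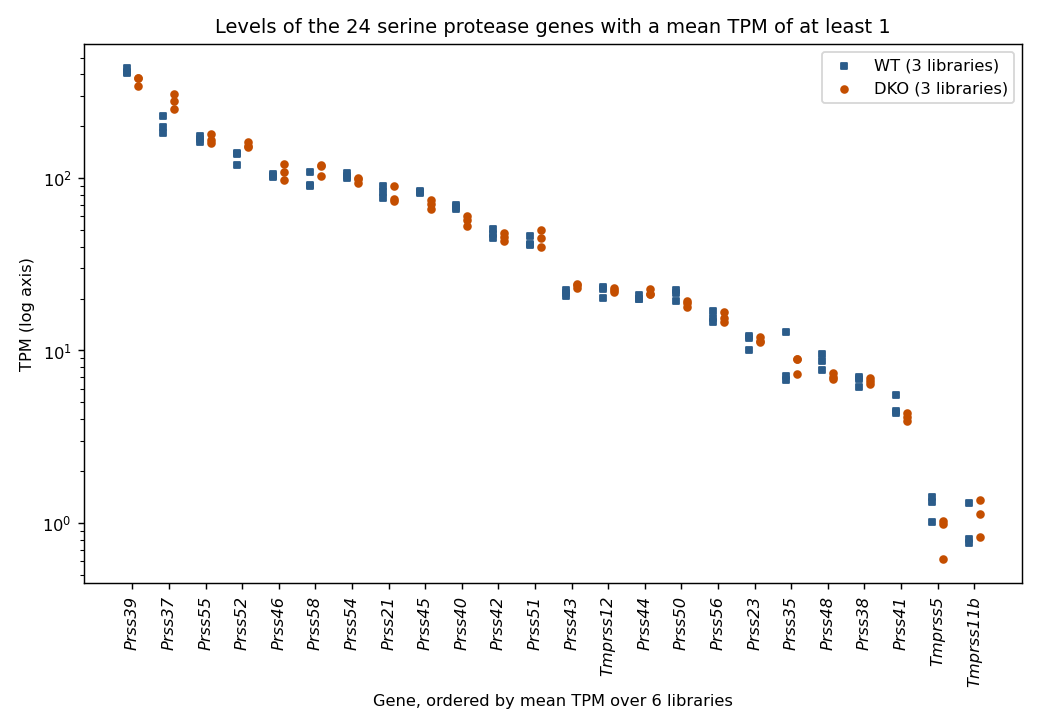
TPM (log axis) of each of the 24 members with a mean of at least 1 TPM, ordered by mean, with 1 point per library (squares WT, circles DKO; 3 libraries each). Levels run from 393 TPM for Prss39 to 1.03 TPM for Tmprss11b, and the points of the groups lie close together beside that range.

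Prss39 (also called TESP1), a trypsin-like protein of the sperm acrosome, was the most abundant member at a mean of 393 TPM. It was followed by Prss37, which lacks an intact catalytic triad and is needed for ADAM3 maturation, at 242 TPM. Neither of these overlapped its neighbours in the order: the lowest library of Prss39 stood at 342 TPM and the highest of Prss37 at 309 TPM. Then came Prss55, a GPI-anchored protein of sperm, at 169 TPM, and Prss52 (TESP3) at 144 TPM. Prss46, Prss58 and Prss54 had means of 106, 105 and 100.4 TPM, and their ranges over libraries overlapped, so that their order is not resolved. Prss21 (testisin, a GPI-anchored protease of the sperm membrane), Prss45 and Prss40 (TESP2) had means of 81.5, 76.9 and 62.3 TPM, and neighbours in that order overlapped too.

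The remaining expressed members formed lower steps. Prss42 and Prss51 stood at 46.6 and 43.9 TPM. Prss43, Tmprss12, Prss44 and Prss50 lay together between 19.9 and 22.7 TPM, with overlapping ranges; Prss42 and Prss43 are known as testis proteases needed by germ cells in meiosis, and Tmprss12 is a sperm membrane protease needed for male fertility. Prss56 followed at 15.6 TPM and Prss23, a secreted protease, at 11.4 TPM. Prss35, Prss48, Prss38 and Prss41 (TESSP1) lay between 4.45 and 8.62 TPM. Tmprss5 and Tmprss11b, at 1.06 and 1.03 TPM, were just above the limit for being counted as expressed, and Prss36, at 0.692 TPM, was the first below it.

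By known role, all 17 members listed as germ cell or sperm proteases were expressed, with means from 4.45 to 393 TPM and a summed level of 1617 to 1699 TPM per library. That list was drawn from knowledge of these genes in testis, so its agreement with expression in testis is no independent result. Outside it, 7 of 38 members reached 1 TPM. None of the group of 5 that holds the digestive enzymes did: trypsinogens (Prss1, Prss2, Prss3), enteropeptidase (Tmprss15) and, listed with them, the membrane protease Tmprss7. Their summed level was 0.36 to 0.69 TPM per library. Of the 13 tryptase-like and epithelial members, which include prostasin (Prss8) and the implantation proteases Prss28 and Prss29, the 2 that reached 1 TPM were Prss48 and Prss38. Among the 7 Tmprss genes listed as hepsin- and matriptase-type 1 did, and among the 7 of the airway trypsin type (Tmprss11a to Tmprss11g) 1 did.

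Prss1, Prss3, Prss29 and Prss30 were listed at 0 in all 6 libraries. Over the 244455027 counts of all libraries, a count of 0 allows up to 3 counts, or 0.0123 CPM, which covers counting error only. A further 5 members (Prss22, Prss27, Prss28, Prss34 and Tmprss11c) had 1 or 2 counts in all. Prss34 is a mast cell protease, and its near absence stands beside mast cell markers whose summed level was 0.31 to 0.6 TPM.

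Levels are given next by gene cluster. The 6 members on chromosome 9 within 67.4 kb (chr9:110797248-110864629, GRCm38.p6: Prss42, Prss44, Prss43, Prss45, Prss46 and Prss50) were all expressed, at 19.9 to 106 TPM. So were the 3 on chromosome 14 (chr14:64075435-64113751: Prss55, Prss51 and Prss52), at 43.9 to 169 TPM, and both on chromosome 1 (chr1:34498412-34561004: Prss39 and Prss40). In contrast, of the 7 members on chromosome 17 at chr17:23833338-24045949, the 2 expressed ones were Prss21 and Prss41, while Prss33, Prss32, Prss30, Prss22 and Prss27 were not. None of the 3 tryptase-like genes farther along that chromosome (chr17:25298394-25322684: Prss34, Prss28 and Prss29) and none of the 3 trypsinogens on chromosome 6 (chr6:41373759-41525079) reached 1 TPM. Prss37 (chr6:40514820-40519535) and Prss58 (chr6:40895262-40900387) lie on the same chromosome as the trypsinogens and were expressed, at means of 242 and 105 TPM. Of the 7 genes of the Tmprss11 cluster on chromosome 5 (chr5:86231481-86745807), Tmprss11b was the 1 that reached the limit.

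For 18 expressed members the RefSeq promoter table held an entry, and the 250 bases before the transcript start used there were searched on both strands for 4 short motifs, which were chosen after the expression values had been seen. The TATA box letters TATAAA were found in 0 of 18, against 14.3% of all 27025 genes in the table. CCAAT was found in 7 of 18 (37.5% of all genes) and TGACG, the half-site of a cAMP response element, in 4 of 18 (19.8%). The E-box CACGTG was found in 4 of 18 (Prss38, Prss40, Prss42 and Prss45), against 6.86% of all genes. For 9 of the 18, Prss40 and Prss42 among them, the window lies partly or wholly inside the widest RefSeq span of the gene. The sequence printed above for Prss40, without the 61 bases inside that span, holds no CACGTG. These are matches of letters in a window and describe no binding.

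The second question was how these genes differ between DKO and WT. By edgeR 1 member, Prss37, was called, higher in DKO by 37.1%. Its call was lost in some fits that left out a library and with fragment length as a covariate. Of the 55 members, 35 had enough counts to be tested, and 1 of these 35 (2.86%) was called at an adjusted p under 0.05, against 10.8% of all 17110 tested genes (5.75% called higher and 5.1% called lower). All 24 expressed members were among the 35. The median log2 fold change of the 35 was -0.032, with 15 above and 20 below 0, against -0.0042 for all tested genes. At an unadjusted p under 0.05, 9 of the 35 passed (25.7%), against 31.7% of all tested genes. In whole testis, fewer cells of a type and less RNA per cell cannot be told apart.

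**Figure D2:**
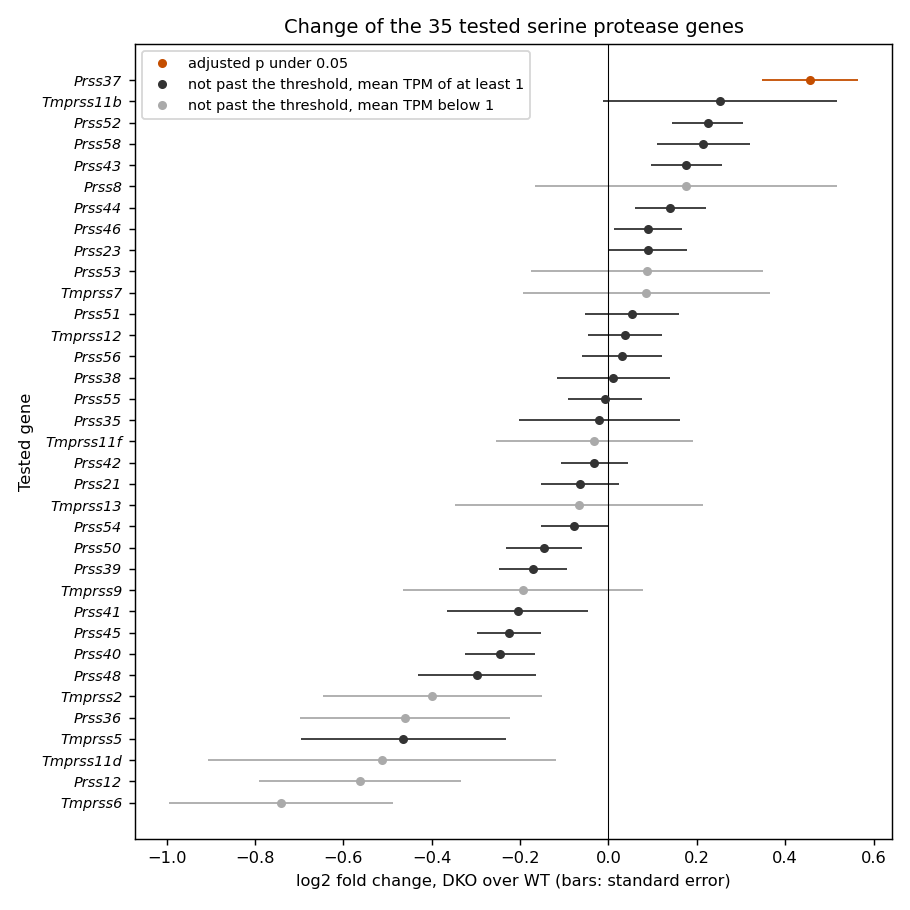
Log2 fold change, DKO over WT, with its standard error for the 35 tested members, from the edgeR fit over all 17110 genes. Prss37 (orange) is the member past the threshold at 0.46; of the 24 expressed members, 20 lie within 0.25 of 0, and the wide bars belong mostly to members below 1 TPM (grey).

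Prss37 stood at 309, 279 and 252 TPM in DKO and at 231, 197 and 182 TPM in WT. Every DKO library was above every WT library. The means were 280 ± 28.8 TPM in DKO and 203 ± 24.9 TPM in WT (SD, n = 3 each). Its log2 fold change on counts was 0.46 (edgeR adjusted p = 0.0343, SE 0.11). No other annotated gene overlaps Prss37.

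The call of Prss37 rests on single libraries. Without DKO replicate 1 the edgeR adjusted p was 0.139 (log2 fold change 0.38), without DKO replicate 2 it was 0.0795 (0.42), without WT replicate 2 it was 0.120 (0.40) and without WT replicate 3 it was 0.117 (0.38). It stayed past the threshold without DKO replicate 3 and without WT replicate 1, at 0.54 and 0.56. Calls over all genes also fell in the same 4 fits, to 11, 655, 13 and 7 genes. With the fragment length of each library as a covariate the log2 fold change was 0.070 (edgeR adjusted p = 0.999, SE 0.15), in a fit that called 1 gene in all (0.00584%). Fragment length did not overlap between the groups, so this fit could not fully separate it from genotype.

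Several other values are set beside Prss37 here. Within DKO its TPM had the same order as the fragment length (317, 289 and 275 bases for replicates 1, 2 and 3). In WT the fragment lengths were 258, 230 and 246 bases. There replicate 1 was highest in both, whereas replicates 2 and 3 stood in opposite orders. By edgeR 2 of 5 spermatocyte markers were called, both higher (Sycp3 and Hormad1), against 10.8% of all tested genes. DESeq2 called 1 of 5, against 17.2% of all tested genes, and limma-voom 1 of 5. The summed level of these 5 markers was 630 to 821 TPM in DKO and 541 to 588 TPM in WT. The same sum for 6 spermatid markers overlapped between the groups (0 of 6 called by edgeR, by DESeq2 or by limma-voom, and 0 of 6 at an unadjusted p under 0.05). The part of cell composition in the Prss37 difference was not tested. With an offset for the effective length of each gene in each library the difference was as large, at 0.51, and with each library's trend on transcript length removed it was 0.52.

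**Figure D3:**
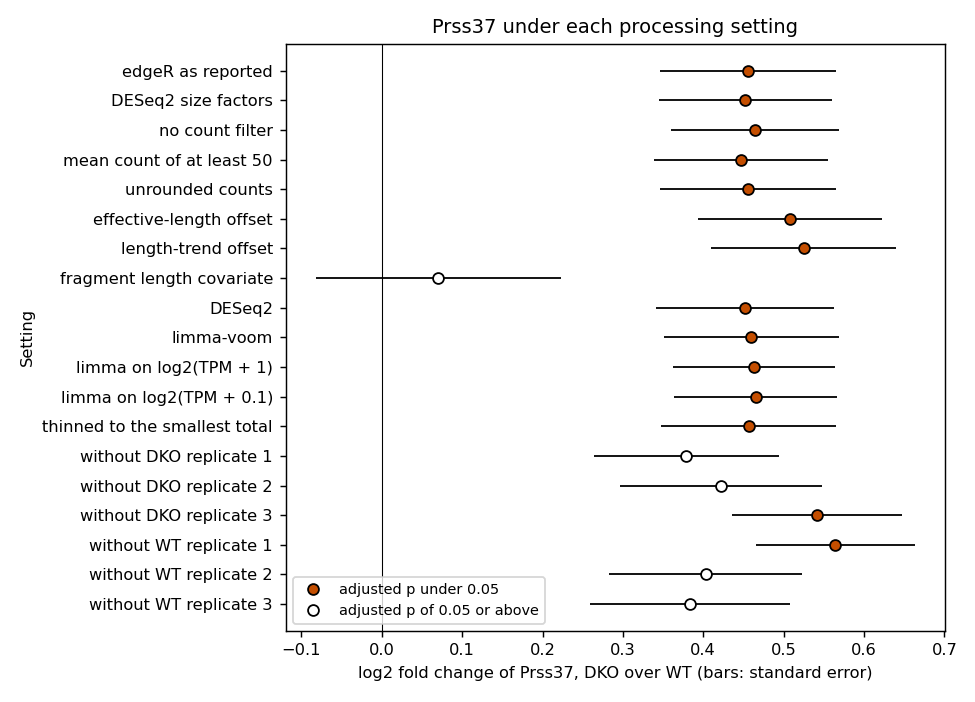
Log2 fold change of Prss37, DKO over WT, with its standard error (x axis) under each processing setting (y axis); filled points have an adjusted p under 0.05. The values lie between 0.38 and 0.56 except with the fragment length covariate, where the value is 0.070, and 5 of the 18 alternatives do not pass the threshold.

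Prss52 and Prss58 also had higher means in DKO, without passing the threshold. Prss52 stood at 161, 154 and 152 TPM in DKO and at 139, 139 and 118 TPM in WT. Its groups did not overlap, with a log2 fold change of 0.22 (edgeR adjusted p = 0.0841, SE 0.080). It passed the threshold when each library's trend on transcript length was removed (0.29, edgeR adjusted p = 0.0480, in a fit that called 9.49% of all genes; range over the settings with all libraries 0.0480 to 0.999). Prss58 stood at 117, 119 and 103 TPM in DKO and at 108, 90.6 and 90 TPM in WT. Its groups overlapped, as WT replicate 1 lay above DKO replicate 3 (log2 fold change 0.21, edgeR adjusted p = 0.185, SE 0.11).

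Prss39, Prss40 and Prss45 had lower means in DKO, again without passing the threshold. Prss39 stood at 342, 381 and 380 TPM in DKO and at 406, 414 and 432 TPM in WT. The groups did not overlap, and the log2 fold change was -0.17 (edgeR adjusted p = 0.154, SE 0.077). Prss40, its neighbour on chromosome 1, stood at 52.5, 59.9 and 57.5 TPM in DKO and at 66.4, 69.5 and 68.1 TPM in WT. It was below every WT library in each DKO library (log2 fold change -0.25, edgeR adjusted p = 0.0628, SE 0.079). Prss39 and Prss40 each overlap other annotated genes (4930568A12Rik, and Cfc1 with Gm28419), and strand handling is not given in the sources used here, so reads of those genes cannot be told apart from theirs where they overlap; Prss52, Prss58, Prss48 and Prss38 overlap another gene too.

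Prss45, one of the testis proteases of the chromosome 9 cluster, stood at 66.0, 70.8 and 75.0 TPM in DKO and at 82.2, 84.7 and 82.6 TPM in WT. Its groups did not overlap either (log2 fold change -0.22, edgeR adjusted p = 0.0643, SE 0.073). DESeq2 called Prss40 and Prss45 lower (adjusted p = 0.0379 and 0.0449) together with Prss37 higher, 3 of 35 members, where it called 17.2% of all genes (9.61% higher and 7.59% lower); over the settings with all libraries the adjusted p ranged from 0.0379 to 0.999 for Prss40 and from 0.0449 to 0.999 for Prss45. Within the chromosome 9 cluster log2 fold changes lay on both sides of 0, from -0.22 for Prss45 to 0.18 for Prss43, none past the threshold.

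**Figure D4:**
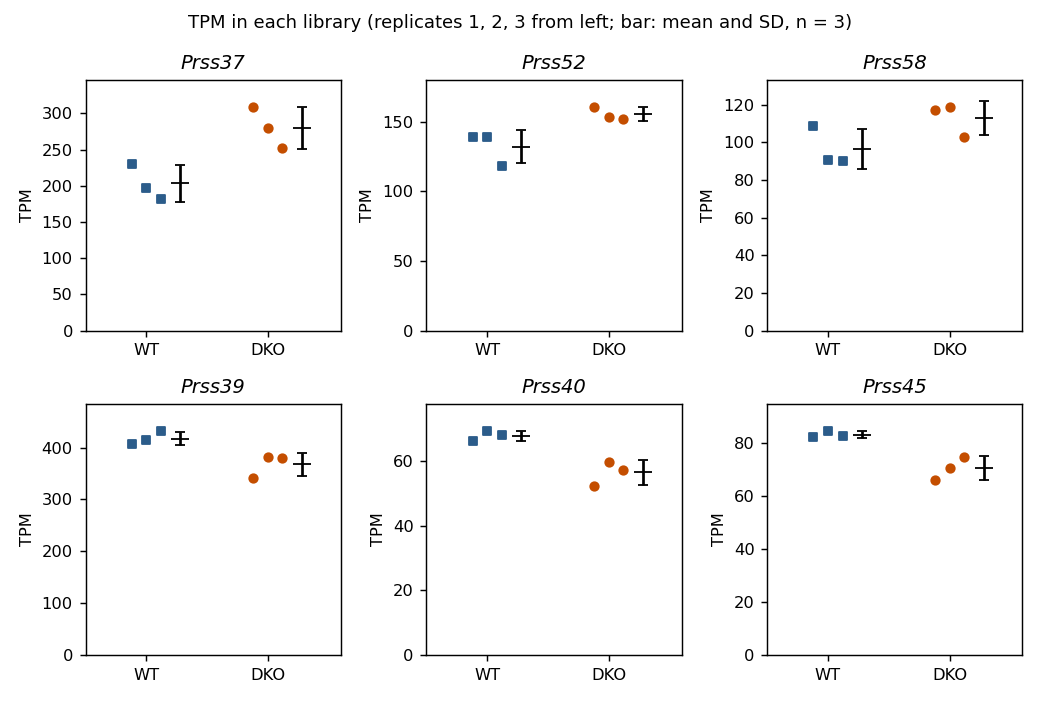
TPM (y axis, from 0) of 6 members in each WT and DKO library, with the mean and SD of 3 libraries beside the points. Prss37 and Prss52 are higher and Prss39, Prss40 and Prss45 lower in every DKO library than in any WT library, Prss58 overlaps, and Prss37 is the one past the threshold.

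None of the other 4 of the 10 most abundant members passed the threshold. Their log2 fold changes were near 0, and leaving out 1 library moved them by amounts that are large beside such small values. Prss55 stood at 167, 180 and 159 TPM in DKO and at 176, 169 and 161 TPM in WT, with overlapping groups and a log2 fold change of -0.0081 (edgeR adjusted p = 0.959, SE 0.084). Prss46 stood at 109, 97.1 and 121 TPM in DKO and at 103, 102 and 105 TPM in WT (log2 fold change 0.090, edgeR adjusted p = 0.456, SE 0.078). The WT libraries of Prss46 lay inside the DKO range. Prss54, a member predicted to lack protease activity, stood at 94.0, 99.0 and 99.6 TPM in DKO and at 107, 99.99 and 103 TPM in WT (log2 fold change -0.078, edgeR adjusted p = 0.514, SE 0.076). On TPM every DKO library of Prss54 was below every WT library, whereas its CPM values overlapped. Prss21 stood at 73.6, 76.0 and 89.7 TPM in DKO and at 76.6, 83.2 and 89.9 TPM in WT, with overlapping groups (log2 fold change -0.064, edgeR adjusted p = 0.655, SE 0.088). Across the fits that left out a library, the log2 fold change ranged from 0.030 to 0.13 for Prss46, from -0.13 to -0.046 for Prss54 and from -0.14 to -0.00067 for Prss21.

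Across the 35 tested members, 13 (37.1%) had CPM values that did not overlap between the groups, 4 higher and 9 lower in DKO, against 35.9% of all tested genes (18.4% higher and 17.5% lower). Standard errors among the 24 expressed members ranged from 0.073 to 0.26 on the log2 scale, and 20 of the 24 had a log2 fold change within 0.25 of 0. The largest value among them was -0.46 for Tmprss5, a gene near 1 TPM, which did not pass the threshold (edgeR adjusted p = 0.193, SE 0.23). Prss35, a secreted protease homologue without the usual catalytic serine, varied within WT, at 6.73, 12.8 and 7.07 TPM against 8.90, 7.31 and 8.94 TPM in DKO. Its high WT replicate 2 was also the library with the highest summed Leydig, Sertoli, peritubular and endothelial, and macrophage markers. These sums were 2999, 173, 72.3 and 16.5 TPM, against 1429, 145, 49.7 and 7.37 TPM in the lowest WT library of each. Whether any of these is related to Prss35 was not tested.

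Tmprss6 (matriptase-2), a liver protease that lowers the iron hormone hepcidin, is named here because of its values, outside the rule for the others. It stood at 0.35, 0.27 and 0.23 TPM in DKO and at 0.48, 0.54 and 0.44 TPM in WT, from 25 to 34 counts per library. Its groups did not overlap, and its log2 fold change of -0.74 was the largest in size among the 35 tested members (edgeR adjusted p = 0.0735, SE 0.25). All 5 tested Tmprss genes listed as hepsin- and matriptase-type had values below 0, with a median of -0.40 and none called by edgeR. Of these, 1 of 5 had an unadjusted p under 0.05, against 31.7% of all tested genes. That list leaves out Tmprss7, also called matriptase-3 and listed with the digestive enzymes, which was above 0 (log2 fold change 0.085, edgeR adjusted p = 0.861). Matriptase itself (St14) and Corin, which are not members, were above 0 too (0.041 and 0.059, edgeR adjusted p = 0.948 and 0.665). They come from a list of other trypsin-like proteases with 8 of 28 tested genes above 0. The shared sign of the 5 genes therefore depends on how the list was drawn. At an adjusted p under 0.1, 5 members would pass (Prss37, Prss40, Prss45, Tmprss6 and Prss52), or 5 of 35 against 23.4% of all tested genes. At an adjusted p under 0.01 no member passed by edgeR, against 0.0409% of all tested genes; DESeq2 put Prss37 at 0.00143.

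Genes that are not members were taken from lists of other trypsin-like proteases, protease inhibitors, factors of ADAM3 maturation and acrosome genes. Of 61 trypsin-like proteases with other names, 28 were tested and 0 called by edgeR, with a median log2 fold change of -0.26. An unadjusted p under 0.05 was found for 7 of the 28, against 31.7% of all tested genes. DESeq2 called 3 of the 28, against 17.2% of all tested genes, and limma-voom 0. Acrosin (Acr), the long-known trypsin-like protease of the sperm acrosome, was at 220 ± 2.94 TPM in DKO and 231 ± 2.84 TPM in WT (SD, n = 3 each; log2 fold change -0.039, edgeR adjusted p = 0.736). Of 39 serine protease inhibitors, 24 were tested and 3 (12.5%, against 10.8% of all tested genes) called, all lower: Spint2, Serpinh1 and Eppin. DESeq2 and limma-voom each called 3 of the list as well. Spint2, a membrane-bound Kunitz inhibitor of trypsin-like and TMPRSS proteases, was at 60.4 ± 4.14 TPM in DKO and 77.4 ± 4.60 TPM in WT (SD, n = 3 each; log2 fold change -0.34, edgeR adjusted p = 0.0288, SE 0.074). Serpinh1 is a collagen chaperone that does not inhibit proteases, and Eppin is a sperm-coating inhibitor. The call of Spint2 was lost without DKO replicate 1, WT replicate 2 or WT replicate 3 (adjusted p = 0.106, 0.1002 and 0.101 by edgeR). With the fragment length covariate its log2 fold change was -0.16 (edgeR adjusted p = 0.999).

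The 18 factors tied to ADAM3 maturation and sperm entry to the oviduct were all tested, and 5 (27.8%) were called, all higher in DKO: Adam4, Adam6a, Adam5, Adam6b and Pmis2. Of all tested genes, 10.8% were called and 5.75% called higher. The CPM values of Adam6b overlapped between the groups. Whether fragments had been divided between the related genes Adam6a and Adam6b was not examined. DESeq2 called 8 of the 18, against 17.2% of all tested genes, and limma-voom called 5, against 1685 of 17110 genes. Of the 18, 10 had an unadjusted p under 0.05, against 31.7% of all tested genes. The spermatocyte markers Sycp3 and Hormad1 were also called higher; their part in these values was not tested. Adam4 was at 58.9, 49.8 and 46.1 TPM in DKO and at 43.1, 37.0 and 36.7 TPM in WT, so every DKO library was above every WT library. Its log2 fold change of 0.46 (edgeR adjusted p = 0.0361, SE 0.11) lay beside that of Prss37 in size, and its call was lost without DKO replicate 1, DKO replicate 2, WT replicate 2 or WT replicate 3 (adjusted p = 0.145, 0.0795, 0.132 and 0.121 by edgeR). With the fragment length covariate it was -0.047. Adam3 itself, at 861 ± 58.5 TPM in DKO and 929 ± 26.8 TPM in WT (SD, n = 3 each), had a log2 fold change of -0.051 and did not pass the threshold (edgeR adjusted p = 0.720). The median of the 18 was 0.17. Of 33 acrosome genes, 32 were tested and 2 (6.25%) called, Izumo3 and Hyal5, both higher, with a median of 0.13. DESeq2 called 10 of these 32, against 17.2% of all tested genes, and limma-voom 2. An unadjusted p under 0.05 was found for 16 of 32, against 31.7% of all tested genes.

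Markers of the other cell types of the testis were counted in the same fit. It called 10.8% of all tested genes, and 31.7% had an unadjusted p under 0.05. DESeq2 called 17.2% of all tested genes and limma-voom 1685 of 17110. For Sertoli cells 2 of 6 were called, both lower (Rhox5 and Cldn11), with summed levels of 124 to 137 TPM in DKO and 145 to 173 TPM in WT. For Leydig cells 2 of 5 were called, both lower (Star and Insl3), with sums of 811 to 1452 TPM in DKO and 1429 to 2999 TPM in WT. DESeq2 called 2 Sertoli and 1 Leydig marker, and limma-voom 2 and 2. By edgeR, 0 of 6 spermatogonial, 0 of 4 macrophage and 0 of 4 peritubular and endothelial markers were called, with 0, 1 and 3 of them at an unadjusted p under 0.05; DESeq2 called 0, 0 and 2, and limma-voom 0, 0 and 0. None of the 6 epididymis and 5 mast cell markers had enough counts to be tested.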

How the data were processed

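RNA was extracted from frozen testes with Trizol and a column kit and screened for integrity, per the labels' protocols. Per the submitters' processing notes, STAR 2.7.0f, RSEM 1.2.31, DESeq2 1.12.3 and the build mm10 were used; their options, strand handling and read filters are not given in the sources used here. Per the file headers, the authors deposited 1 RSEM table per library with an expected count and a TPM per gene beside transcript lengths, for 24411 genes. Expected counts are the authors' estimates per gene, not normalized (93.2% whole), and the deposited TPM values are scaled by effective length.

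Expected counts were rounded. Genes were kept by filterByExpr (17110 tested), scaled by TMM and compared, DKO over WT, by the quasi-likelihood test of edgeR 4.0.16 in a model of genotype alone on 3 against 3 libraries, with Benjamini-Hochberg adjustment over all tested genes. Standard errors are the fold change divided by the root of F. Single sums used the exact permutation test (scipy 1.17.1). The mean fragment length was read from the gap between length and effective length of genes above 3000 bases. Positions are from RefSeq GRCm38.p6, the same assembly as mm10, for 55 of 55 members; transcripts for alignment (Biopython 1.88) are GENCODE M21 matched by RefSeq accession, for 54 of 55. Members are clustered where neighbours lie within 100000 bases. Alternatives were DESeq2 1.42.0, its size factors, limma 3.58.1 (voom, and log2(TPM + 1) or log2(TPM + 0.1)), other filters, unrounded counts, 2 length offsets, a fragment length covariate, thinning and leaving out each library.

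Members and lists were chosen with earlier results of these data known. Members called and the 10 with the highest mean TPM are given by library. Replicates are numbered in deposition order and pair no samples. Library names carry the same flow cell and lane; preparation batches are not given in the sources used here.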

Additional observations from a re-analysis of the deposited data

How the results depend on the processing

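No paired analysis was possible because the labels number the animals without shared numbers between genotypes. The count of called members was 1 (Prss37, higher). It was 2 with each library's length trend removed (2 higher), 3 with DESeq2 (2 lower) and 0 with the fragment length covariate (0 higher), where 1 of 35 members had an unadjusted p under 0.05. At an adjusted p under 0.01 it was 0 by edgeR, and under 0.1 it was 5. Across the fits that left out a library it was 0 to 1, both in all and among higher calls, with 4 to 9 tested members at an unadjusted p under 0.05. All genes called, 1856 as reported, numbered 1 with the covariate, 2943 with DESeq2, 735 on log2(TPM + 1), 947 on log2(TPM + 0.1) and 7 to 3029 across the fits that left out a library. The log2 ratio of the summed TPM, 0.031 over all members, was 0.095 without Prss39. Prss55 turned to 0.00038 without a count filter, 0.047 with the effective-length offset and 0.062 with the length trend removed, and ranged from -0.095 to 0.048 across the fits that left out a library. With the fragment length covariate Prss58 turned to -0.069, Prss21 to 0.16 and Adam4 to -0.047. The cause was not tested, and because fragment length did not overlap between the groups, that fit could not fully separate it from genotype. The covariate also brought Prss39 to -0.082, Prss40 to -0.15, Prss45 to -0.11 and Prss52 to 0.13. Abcc5 stayed higher and did not pass the threshold with the covariate (0.64), on log2(TPM + 1) (0.27) or on log2(TPM + 0.1) (0.33); leaving out a library gave 0.49 to 0.61, and the call was lost without DKO replicate 1, WT replicate 2 or WT replicate 3 (edgeR adjusted p = 0.0980, 0.0562 and 0.0993). Depth limits the members below 1 TPM, such as Tmprss6 with 25 to 34 counts per library.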
